A study of Homo sapiens with 24 samples.

Results

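The genes described are the 3 members of the human IQGAP family, IQGAP1, IQGAP2 and IQGAP3, out of 60641 gene symbols counted in every library. The family was chosen because IQGAP2 had been seen to be higher in several of the knockouts, and its paralogs IQGAP1 and IQGAP3 were taken for comparison. The values that selected IQGAP2 are its differences between knockout (KO) and wild-type (WT) libraries. For IQGAP2 these differences are therefore a description with no test, while IQGAP1 and IQGAP3, which were not selected on their values, were tested. All 3 genes passed the filter on low counts in each of the 7 comparisons.

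The study deleted DNA-binding domains (DBDs), the stretches of a noncoding transcript predicted to pair with genomic DNA, from MSTRG transcripts with CRISPR/Cas9, and sequenced total RNA from KO and WT cells after removal of ribosomal RNA. The cells were established human cancer lines, A549 from lung and HCT116 from colon. There were 24 libraries in 8 groups of 3. In A549 the groups were WT B, MSTRG.2513.6 DBD KO and MSTRG.4401.1 DBD KO. In HCT116 they were WT A, WT B, MSTRG.2513.6 DBD KO, MSTRG.4401.1 DBD KO and MSTRG.34636.7 DBD KO. No drug or other treatment is named in the labels, and whether a KO group was grown from 1 clone, or whether its 3 libraries came from separate cultures, is not given in the sources used here. P-values therefore measure the spread between these libraries, which may be technical. The targeted MSTRG transcripts were not analysed here.

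IQGAP proteins are large scaffolds that hold together actin filaments, calmodulin, the small GTPases CDC42 and RAC1, cadherin complexes and kinases of the MAP kinase cascade. Their RasGAP-related domain binds active GTPases and does not speed GTP hydrolysis. IQGAP1 is made in most cell types and is known for its part in migration and adhesion, IQGAP2 is most abundant in liver, and IQGAP3 is found mainly in dividing cells.

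On GRCh38 (GENCODE release 44), IQGAP1 lies on the plus strand at chr15:90388242-90502239, IQGAP2 on the plus strand at chr5:76403285-76708132 and IQGAP3 on the minus strand at chr1:156525405-156572604. The union of their annotated exons spans 11507, 10161 and 6742 bp over 18, 21 and 4 transcripts, in that order. The counts are per gene symbol and do not separate transcripts or start sites. One of the deleted sequences, a stretch of 161 bp on chromosome 1, lies 70919 bp from the nearest end of IQGAP3, with 4 protein-coding genes in between, and the sources used here do not pair it with one MSTRG transcript.

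RefSeq (GRCh38.p14) gives IQGAP1 and IQGAP3 a single promoter window each and IQGAP2 a set of 3. The first window of each gene, 250 bases before and 50 bases from the annotated start, is printed on its own strand to show how differently the start sites of these paralogs are built. Capitals mark the letters of 4 motifs searched on both strands: the TATA box (TATAAA), the CCAAT box (CCAAT), the GC box (GGGCGG) and the cell-cycle genes homology region (CHR, TTTGAA). The windows are chr15:90387992-90388291 on the plus strand, chr5:76403035-76403334 on the plus strand and chr1:156572516-156572815 on the minus strand. The third IQGAP2 window, chr5:76608861-76609160 on the plus strand, is printed after the first because it is the only window of the family with a TATA box.
IQGAP1: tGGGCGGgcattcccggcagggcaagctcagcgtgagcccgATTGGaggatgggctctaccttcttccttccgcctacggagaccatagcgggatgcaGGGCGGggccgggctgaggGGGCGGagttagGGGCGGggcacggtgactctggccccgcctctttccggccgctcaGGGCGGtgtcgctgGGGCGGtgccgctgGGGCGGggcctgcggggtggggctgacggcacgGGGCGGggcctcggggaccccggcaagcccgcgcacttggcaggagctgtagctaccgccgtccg
IQGAP2: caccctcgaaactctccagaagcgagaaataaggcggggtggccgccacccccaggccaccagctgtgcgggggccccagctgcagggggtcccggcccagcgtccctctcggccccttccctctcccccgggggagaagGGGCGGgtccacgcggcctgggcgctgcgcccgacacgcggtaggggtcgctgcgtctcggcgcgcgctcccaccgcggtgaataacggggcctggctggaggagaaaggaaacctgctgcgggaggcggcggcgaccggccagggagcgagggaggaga
IQGAP2, window 3: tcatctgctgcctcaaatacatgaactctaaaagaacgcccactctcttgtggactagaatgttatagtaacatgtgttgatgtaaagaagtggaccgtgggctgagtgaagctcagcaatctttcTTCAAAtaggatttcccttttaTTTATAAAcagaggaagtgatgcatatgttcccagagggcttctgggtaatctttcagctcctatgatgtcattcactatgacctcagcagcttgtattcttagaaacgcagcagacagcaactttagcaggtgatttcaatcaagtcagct
IQGAP3: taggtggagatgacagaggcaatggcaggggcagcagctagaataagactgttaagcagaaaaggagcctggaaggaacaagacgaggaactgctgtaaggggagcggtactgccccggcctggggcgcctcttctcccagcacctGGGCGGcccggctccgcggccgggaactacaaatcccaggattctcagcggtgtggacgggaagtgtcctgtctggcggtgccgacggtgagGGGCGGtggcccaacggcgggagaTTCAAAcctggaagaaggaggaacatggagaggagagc

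The IQGAP1 window is 74.0% G and C and holds 31 CpG dinucleotides, 8 GC boxes and 1 CCAAT box. The first IQGAP2 window is as rich in G and C (73.7%, 32 CpG) but holds 1 GC box and none of the other motifs. The second IQGAP2 window, chr5:76547159-76547458, is 40.0% G and C, with 0 CpG and none of the motifs. The third is 41.3% G and C with 3 CpG, and in it 2 overlapping TATA-box matches, one per strand, and 1 CHR on the reverse strand were found. The IQGAP3 window (61.7%, 17 CpG) holds 2 GC boxes and 1 CHR on the reverse strand, whose first base lies 12 bases past the start. Among 35116 windows of this length the median is 58.7% G and C with 14 CpG. A TATA box occurs in 11.5% of them, a CCAAT box in 34.6%, a GC box in 45.0% and a CHR in 15.2%. These matches describe letters in a window and say nothing of binding.

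The libraries held 25799359 to 102261808 counts. Of the 24, the libraries S8 and S9, both labelled HCT116 MSTRG.2513.6 KO, stood apart from the other 13 HCT116 libraries. Their log2 levels correlated with those libraries at r from 0.916 to 0.927 across genes, and with the A549 libraries at 0.971 to 0.995, whereas the remaining library of the group, S11, correlated with the other HCT116 libraries at 0.972 to 0.987. The summed level of 6 genes that are high in A549 (ALDH1A1, ALDH3A1, AKR1B10, AKR1C1, AKR1C2 and AKR1C3) was 13389 and 13483 CPM (counts per 1000000 counts of the library) in S8 and S9, 9822 to 14400 in A549 and 4.998 to 10.6 in the other HCT116 libraries. CDKN2A and CDKN2B, which A549 has lost, were at 0 in all A549 libraries, at 0.215 to 0.530 and 0 to 0.0848 CPM in S8 and S9, and at 36.98 to 59.6 and 5.95 to 12.6 CPM in the other HCT116 libraries. MTAP, their neighbour, was at 16.5 to 25.3 CPM in A549, 15.4 and 20.7 in S8 and S9 and 204 to 480 in the other HCT116 libraries. S8 and S9 thus go against their label on these markers, and the tests of the HCT116 MSTRG.2513.6 KO are given also with S11 as its only library. In those fits the KO has 1 library and the spread is that of WT B alone, the KO being assumed to vary like it. The sums of 6 lung alveolar genes were low in both lines, at 3.31 to 7.98 CPM in A549 and 3.59 to 9.02 in HCT116 without S8 and S9. Those of 6 intestinal genes were 16.1 to 25.7 CPM in HCT116 without S8 and S9 and 7.04 to 22.4 in A549. Of the intestinal genes CDX2, which specifies intestinal epithelium, was at 13.9 to 23.6 CPM in HCT116 without S8 and S9. It was at most 1.20 CPM in A549, and CDX1 at most 0.0426 in either line. GPA33 was at 0 in A549 and at most 0.466 CPM in HCT116 without S8 and S9. CDH17, VIL1 and LGALS4 went the other way, reaching 16.3, 6.94 and 1.33 CPM in A549. They reached 1.76, 2.04 and 0.218 CPM in HCT116 without S8 and S9.

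IQGAP1 varied least among groups, by 1.59-fold between its highest and lowest group mean, against 2.45-fold for IQGAP3 and 43.7-fold for IQGAP2. Its mean level in CPM (± SD, n = 3 in each group) was 430 ± 23.2 in A549 WT B, 428 ± 72.5 in the HCT116 MSTRG.2513.6 KO, 384 ± 77.5 in the A549 MSTRG.2513.6 KO and 342 ± 19.96 in the HCT116 MSTRG.34636.7 KO. It was 316 ± 27.0 in HCT116 WT A, 283 ± 51.1 in the A549 MSTRG.4401.1 KO, 283 ± 11.1 in HCT116 WT B and 271 ± 7.32 in the HCT116 MSTRG.4401.1 KO. In this order the ranges of every pair of neighbouring groups overlapped. In the HCT116 MSTRG.2513.6 KO, IQGAP1 was 347 CPM in S11 and 450 and 487 CPM in S8 and S9.

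IQGAP2 spanned the widest range, from 1.03 CPM (62 counts) in an HCT116 WT B library to 63.5 CPM (2109 counts) in a library of the A549 MSTRG.4401.1 KO. Its levels were 8.66, 9.65 and 9.94 CPM in A549 WT B, 17.2, 21.6 and 21.7 CPM after loss of the MSTRG.2513.6 DBD, and 42.9, 48.7 and 63.5 CPM after loss of the MSTRG.4401.1 DBD. These 3 groups did not overlap. How many of all genes had ranges without overlap was not counted, here or in the comparisons below. In HCT116, levels were 1.03, 1.18 and 1.33 CPM in WT B and 4.21, 4.77 and 5.06 CPM in the MSTRG.4401.1 KO, again with no overlap. The HCT116 MSTRG.2513.6 KO was split: S11 had 6.93 CPM, whereas S8 and S9 had 22.1 and 20.5 CPM, beside 17.2 to 21.7 CPM in the A549 KO of the same DBD. In bulk RNA, a higher share of cells with IQGAP2 and more of its RNA per cell cannot be told apart. HCT116 WT A had 1.24, 4.95 and 1.78 CPM in its libraries 1A, 2A and 3A, and the MSTRG.34636.7 KO had 2.21, 2.68 and 2.80 CPM, inside the WT A range. Library 2A of WT A held 2.78 times the next highest level of its group, near the levels of the MSTRG.4401.1 KO.

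By mean level of IQGAP2, the A549 MSTRG.4401.1 KO (51.7 ± 10.6 CPM) came first, followed by the A549 MSTRG.2513.6 KO (20.2 ± 2.56), the HCT116 MSTRG.2513.6 KO (16.5 ± 8.32), A549 WT B (9.42 ± 0.669), the HCT116 MSTRG.4401.1 KO (4.68 ± 0.431), HCT116 WT A (2.66 ± 2.00), the HCT116 MSTRG.34636.7 KO (2.57 ± 0.311) and HCT116 WT B (1.18 ± 0.152). Neighbours in this order did not overlap at 3 places: between the A549 KOs, between A549 WT B and the HCT116 MSTRG.4401.1 KO, and between the MSTRG.34636.7 KO and WT B.

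The order of IQGAP3 differed from that of IQGAP1. Its mean level was 169 ± 12.3 CPM in the A549 MSTRG.4401.1 KO, 131 ± 9.21 in A549 WT B, 115 ± 15.9 in the A549 MSTRG.2513.6 KO and 106 ± 3.91 in the HCT116 MSTRG.4401.1 KO. It was 91.99 ± 17.2 in the HCT116 MSTRG.2513.6 KO, 86.9 ± 5.01 in HCT116 WT B, 84.5 ± 17.7 in WT A and 69.0 ± 4.51 in the MSTRG.34636.7 KO. Neighbours did not overlap between the first pair and the last pair of this order. In the HCT116 MSTRG.2513.6 KO, IQGAP3 was 72.1 CPM in S11 and 101 and 103 CPM in S8 and S9, and library 2A of WT A (105 CPM) stood above 1A and 3A (75.0 and 73.5 CPM) for IQGAP3 as it did for IQGAP2.

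**Figure D1:**
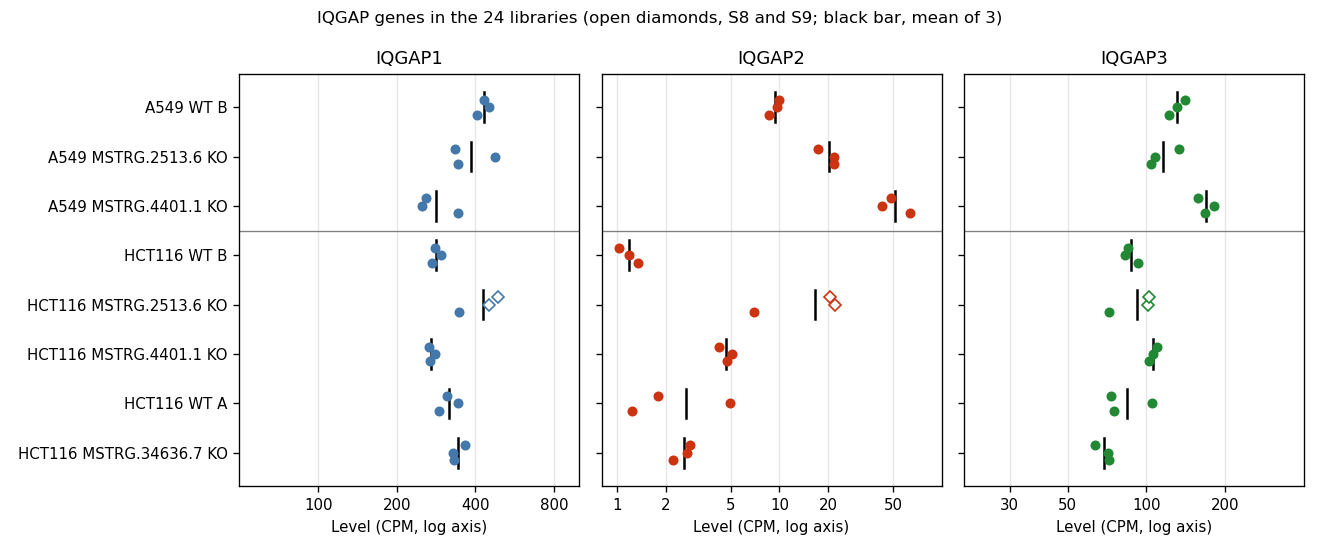
Level of IQGAP1, IQGAP2 and IQGAP3 in each library, in CPM on log axes, by group, with open diamonds for S8 and S9 and a black bar for the mean of the 3 libraries. IQGAP2 ran from 1.03 to 63.5 CPM over the 24 libraries, whereas IQGAP1 stayed between 249 and 487 CPM. IQGAP2 was higher than WT B in every library of the MSTRG.2513.6 and MSTRG.4401.1 KOs labelled with the same cell line. These include S8 and S9, which carry A549 marker levels. Library 2A of HCT116 WT A, at 4.95 CPM, lay within the range of the HCT116 MSTRG.4401.1 KO.

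Per kb of exon the family can be compared gene by gene, with a limit. The length used is the union of annotated exons, which may differ from that of the transcripts expressed. IQGAP2 was the lowest of the 3 in all 24 libraries, and IQGAP1 the highest in 22, with IQGAP3 the highest in the other 2. Both were of the A549 MSTRG.4401.1 KO, S24 and S25, and in S25 the values were near (23.4 and 22.4 CPM per kb). In CPM, without the length, IQGAP1 was above IQGAP3 in S24 (249 against 182) and S25 (258 against 157). In A549 WT B, IQGAP1 had 37.4 ± 2.01 CPM per kb, IQGAP3 19.5 ± 1.37 and IQGAP2 0.927 ± 0.0658, so that IQGAP2 made up 1.60% ± 0.0404 of the family's summed level per kb. That share was 3.81% ± 0.610 in the MSTRG.2513.6 KO and 9.25% ± 1.17 in the MSTRG.4401.1 KO, where IQGAP1 (44.7% ± 3.96) and IQGAP3 (46.0% ± 5.10) had like shares, against 64.7% ± 1.37 and 33.7% ± 1.34 in WT B. The summed level of the family per kb differed little among these groups, 57.7 ± 3.02, 52.5 ± 6.11 and 54.7 ± 5.36 CPM per kb. In HCT116 the IQGAP2 share was 0.310% ± 0.0388 in WT B, 0.618% ± 0.388 in WT A, 0.628% ± 0.0689 in the MSTRG.34636.7 KO, 1.16% ± 0.103 in the MSTRG.4401.1 KO and 2.96% ± 1.17 in the MSTRG.2513.6 KO, whose lowest library, S11, had 1.64%.

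**Figure D2:**
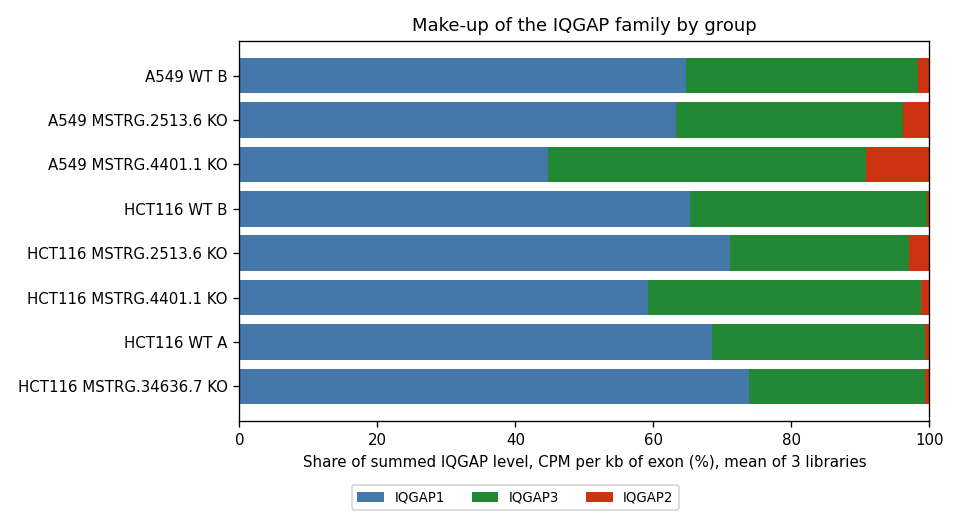
Share of each gene in the summed IQGAP level per kb of exon, in percent, as the mean of 3 libraries in each group. IQGAP2 took 0.310% in HCT116 WT B and 9.25% in the A549 MSTRG.4401.1 KO, and IQGAP1 and IQGAP3 made up the rest.

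The first comparison asked how the paralogs stood after loss of the MSTRG.2513.6 DBD in A549. IQGAP2 was 2.15-fold higher than in WT B, with a log2(fold change) of 1.11 (SE 0.153). IQGAP1 had a log2(fold change) of -0.16 (SE 0.152, 95% interval -0.51 to 0.19, edgeR FDR 0.664) and IQGAP3 one of -0.19 (SE 0.102, -0.42 to 0.05, FDR 0.412). Neither paralog passed, and the KO and WT ranges overlapped for both. A gene was called at an FDR under 0.1 with an absolute log2(fold change) above 1, and 2.92% of the genes tested were called in this comparison, or 5.96% by FDR alone. IQGAP2 was among them, as its choice implies.

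Loss of the MSTRG.4401.1 DBD in A549 went with the largest difference of IQGAP2 among the A549 groups, and with differences of both paralogs in opposite directions. IQGAP2 was 5.19-fold higher than in WT B (log2(fold change) 2.38, SE 0.151). IQGAP1 was lower in all 3 KO libraries (249, 258 and 342 CPM) than in the WT libraries (406, 431 and 452 CPM), with a log2(fold change) of -0.69 (SE 0.132, 95% interval -0.99 to -0.39, edgeR FDR 0.00637). IQGAP3 was higher in all 3 KO libraries (157, 167 and 182 CPM) than in WT (122, 131 and 141 CPM), with a log2(fold change) of 0.29 (SE 0.0952, 0.07 to 0.50, FDR 0.0477). Both passed by FDR alone and neither by the fold threshold. This comparison moved many genes: 15.4% of those tested were called and 43.7% passed by FDR alone, so that passing by FDR alone was common here. The IQGAP3 result did not pass with DESeq2 (FDR 0.132) or without the filter on low counts (0.21, FDR 0.188). The median log2(fold change) of all genes was 0.12 and became 0.28 under upper-quartile normalization, where IQGAP1 stood at -0.52 and IQGAP3 at 0.46. The KO libraries also had fewer counts (25799359 to 33205007 against 41563496 to 59466012 in WT B) and more mitochondrial counts (6.10% ± 2.30 against 2.11% ± 0.221), and the part of these in the results was not tested.

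In HCT116, IQGAP2 was 16.9-fold higher in the MSTRG.2513.6 KO than in WT B over all 3 KO libraries (log2(fold change) 4.08, SE 0.614). With S11 as the only KO library the log2(fold change) was 2.47, and without S11 it was 4.48. IQGAP1 had a log2(fold change) of 0.83 (SE 0.251, edgeR FDR 0.158) with all 3 libraries, 0.21 with S11 alone (FDR 0.0955) and 1.04 without S11 (FDR 2.56e-05), the last being past both thresholds. IQGAP3 had a log2(fold change) of 0.32 (SE 0.263, FDR 0.540), which turned to -0.35 with S11 alone (FDR 0.0215) and was 0.55 without S11. In this comparison 0.933% of genes were called and 1.42% passed by FDR alone, against 8.69% and 28.6% with S11 alone. The levels of A549 marker genes moved with these differences: S8 and S9, at 13389 and 13483 CPM of the A549-high genes, were the libraries with the higher IQGAP levels, and S11, at 10.6 CPM, the one with the lower.

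In the HCT116 MSTRG.4401.1 KO, IQGAP2 was 3.92-fold higher than in WT B (log2(fold change) 1.97, SE 0.172). IQGAP3 was 102.1, 106 and 110 CPM in the KO and 83.0, 85.3 and 92.6 CPM in WT B, without overlap, at a log2(fold change) of 0.27 (SE 0.0466, 95% interval 0.16 to 0.38, edgeR FDR 0.0103). It thus passed by FDR alone, as did 16.3% of genes, and was not among the 2.62% called. IQGAP1 had a log2(fold change) of -0.07 (SE 0.0510, -0.19 to 0.05, FDR 0.433) with overlapping ranges. With WT A as the control the IQGAP3 log2(fold change) was 0.32 and did not pass (FDR 0.201), that of IQGAP2 was 0.83, and library 2A of WT A lay within the range of the KO. The level of replication-dependent histone genes was also higher in the KO (11256 ± 689 CPM) than in WT B (7451 ± 213 CPM), and its part in the result was not tested.

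The HCT116 MSTRG.34636.7 KO, compared with WT A, was the one KO in which IQGAP2 did not stand above its control. Its log2(fold change) was -0.02 (SE 0.454, 95% interval -1.06 to 1.02), an interval that spans a doubling in either direction and that rests on library 2A: without it the value was 0.71. IQGAP1 had a log2(fold change) of 0.11 (SE 0.130, -0.18 to 0.41, edgeR FDR 0.732). IQGAP3 was 63.8, 71.1 and 72.0 CPM in the KO and 73.5, 75.0 and 105 CPM in WT A, without overlap, at a log2(fold change) of -0.29 (SE 0.144, -0.62 to 0.04, FDR 0.386), which did not pass. With WT B as the control IQGAP2 stood above it, at a log2(fold change) of 1.10 and without overlap of the ranges. IQGAP3 was at -0.36 against WT B (edgeR FDR 0.00166) and IQGAP1 at 0.26 (edgeR FDR 0.0249), both passing by FDR alone. Against WT A 1.34% of genes were called and 2.15% passed by FDR alone. Histone genes were at 4049 ± 150 CPM in the KO and 7839 ± 704 CPM in WT A.

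Both wild types of HCT116 were compared to show how far a control can move. Between WT A and WT B, IQGAP2 had a log2(fold change) of 1.13 (SE 0.477), which became 0.39 without library 2A. IQGAP1 had a log2(fold change) of 0.15 (SE 0.122, 95% interval -0.13 to 0.43, edgeR FDR 0.539) and IQGAP3 one of -0.06 (SE 0.147, -0.40 to 0.28, FDR 0.859). Of all genes, 7.06% were called and 12.3% passed by FDR alone. What separates WT A from WT B is not given in the labels beyond the letter.

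All members were higher in A549 WT B than in HCT116 WT B. IQGAP2 was 9.51-fold higher (log2(fold change) 3.25, SE 0.157), IQGAP1 1.82-fold (0.87, SE 0.0646, edgeR FDR 2.22e-05) and IQGAP3 1.81-fold (0.85, SE 0.0532, FDR 8.82e-06). None of the ranges overlapped, and how many of all genes did not overlap was not counted. Only IQGAP2 passed the fold threshold, and against HCT116 WT A its log2(fold change) was 2.06. Between the lines 35.7% of genes were called and 62.9% passed by FDR alone, so differences of the size of IQGAP1 and IQGAP3 were common: 43.3% and 43.7% of genes differed by as much.

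**Figure D3:**
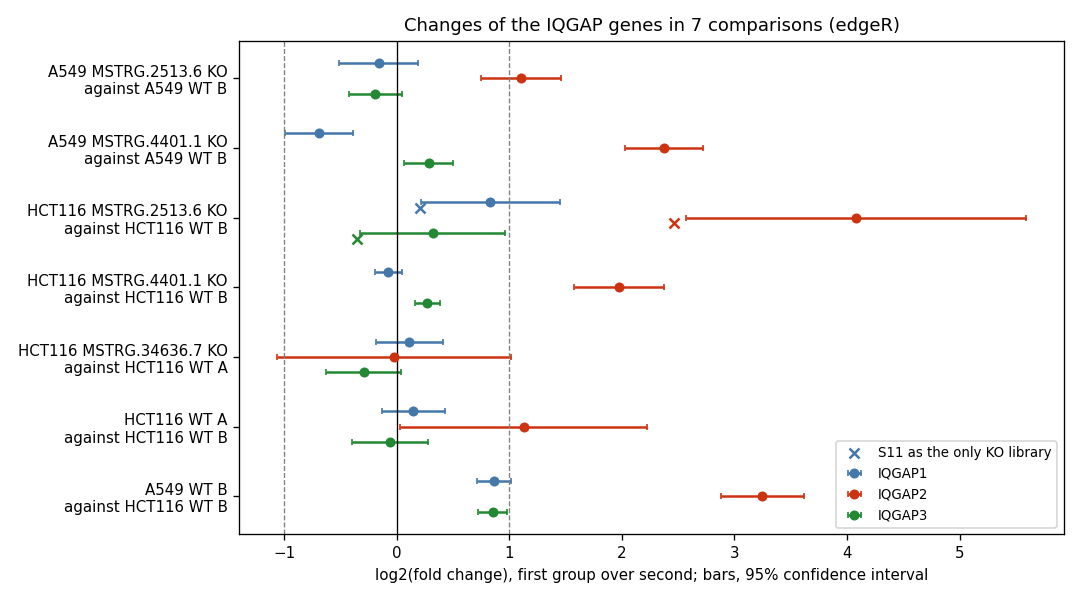
Log2(fold change) of the 3 genes in 7 comparisons, with 95% confidence intervals, dashed lines at -1 and 1, and crosses for fits with S11 as the only HCT116 MSTRG.2513.6 KO library. For IQGAP2 in the KO comparisons the intervals are a description and no test, since these differences selected the gene. IQGAP2 lies beyond 1 in the first 4 comparisons from the top, at 1.11, 2.38, 4.08 and 1.97, and at -0.02 in the MSTRG.34636.7 KO, where its interval is wide, while IQGAP1 and IQGAP3 lie within 1 of 0 throughout.

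Whether a paralog's KO effect differed between the lines was tested as an interaction over 12 libraries. For MSTRG.4401.1 the IQGAP1 effect was 0.64 log2 units higher in HCT116 than in A549 (SE 0.154, 95% interval 0.31 to 0.98, edgeR FDR 0.0121), and the IQGAP3 effects differed by 0.02 (SE 0.0884, -0.17 to 0.21, FDR 0.927). Interactions passed for 27% of genes tested with this DBD. For MSTRG.2513.6 the IQGAP1 effect was 0.96 higher in HCT116 (SE 0.299, 0.29 to 1.62, FDR 0.0946) and the IQGAP3 effect 0.47 higher (SE 0.280, -0.15 to 1.09, FDR 0.402), with 9.88% of genes passing. With S11 as the only HCT116 KO library the IQGAP1 value was 0.38 (FDR 0.401) and the IQGAP3 value -0.16. IQGAP2 was given no such test, because its KO differences are what selected it. The KOs of one line share their WT B libraries, so their values are given side by side and not as separate evidence.

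Genes around the members were read for the same comparisons. IQGAP2 contains F2RL2, which codes for a protease-activated receptor and lies on the opposite strand with exons that overlap those of IQGAP2. Since the use of strand in counting is not given, reads there cannot be told apart between the genes. F2RL2 was 5.55 to 10.97 CPM in A549 WT B, between 1.14 and 5.21 CPM in the MSTRG.2513.6 KO, and between 6.98 and 8.07 CPM in the MSTRG.4401.1 KO, so in A549 it was not wholly above its WT range in either. Its log2(fold change) was -1.61 (SE 0.510, edgeR FDR 0.158) and -0.30 (SE 0.231, FDR 0.336) in these KOs. In HCT116 it was 0.0665 to 0.133 CPM in WT B and above that range in the MSTRG.2513.6 and MSTRG.4401.1 KOs. It was 0.174 to 0.258 CPM in the MSTRG.4401.1 KO, where it did not pass the filter on low counts. In the MSTRG.2513.6 KO it was 0.770 to 6.06 CPM (log2(fold change) 5.61, SE 1.02, edgeR FDR 0.103, and 2.80 with S11 alone). The MSTRG.34636.7 KO, where IQGAP2 was also above its WT B range, had F2RL2 at 0.0655 to 0.0853 CPM, not above WT B.

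F2R, the thrombin receptor gene, begins 7993 bp past IQGAP2 on the same strand. Its log2(fold change) was 0.62 (SE 0.112, edgeR FDR 0.0255) in the A549 MSTRG.2513.6 KO and 0.42 (SE 0.0677, FDR 0.00816) in the HCT116 MSTRG.4401.1 KO. In the A549 MSTRG.4401.1 KO, where IQGAP2 was further above WT B than in the other A549 KO, F2R was lower, at -0.62 (SE 0.118, edgeR FDR 0.00618). In the MSTRG.34636.7 KO it was 0.49 (SE 0.111, FDR 0.0979), with IQGAP2 at -0.02. In the HCT116 MSTRG.2513.6 KO it was called at 2.36 (SE 0.397, FDR 0.0952), or 1.29 with S11 alone (FDR 0.00095), with 57.6 CPM in S11 and 21.3 to 23.4 CPM in WT B. SV2C, the nearest protein-coding gene on the other side, was at most 0.271 CPM in any library. Within 5 Mb of IQGAP2, the median log2(fold change) of the 67 to 74 genes tested lay between -0.10 and 0.12 in the KO comparisons. For the HCT116 MSTRG.2513.6 KO it was 0.12, and -0.17 with S11 alone. Beside IQGAP3, MEF2D was called lower in the A549 MSTRG.4401.1 KO, at -1.80 (SE 0.387, edgeR FDR 0.00981), where 15.4% of all genes were called. MEF2D varied widely within groups. It was 3.82 to 8.29 CPM in that KO, 12.8 to 32.1 CPM in WT B and 2.53 to 37.5 CPM in the A549 MSTRG.2513.6 KO.

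**Figure D4:**
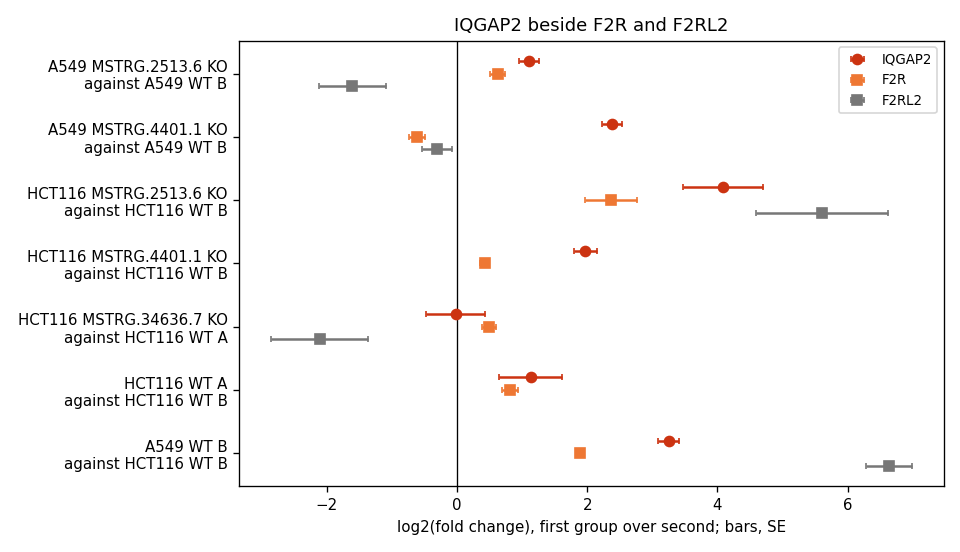
Log2(fold change) ± SE of IQGAP2, of F2R, which follows it on the chromosome, and of F2RL2, which lies inside it, in the comparisons where each was tested. In the A549 MSTRG.4401.1 KO, IQGAP2 was at 2.38, F2R at -0.62 and F2RL2 at -0.30.

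Binding partners of IQGAP proteins were read from lists by role. Of 8 small GTPases and regulators, 0 were called in any KO by edgeR or DESeq2, and 13 of their 40 tests over the 5 KOs had an unadjusted p under 0.05, as did 24.3% of the tests of all genes. In the A549 MSTRG.4401.1 KO all 8 had values below 0 (median -0.45) and 5 passed by FDR alone, as did 43.7% of all genes, among them CDC42, the best known GTPase partner (-0.43, SE 0.116, edgeR FDR 0.0223), and RHOA (-0.91, SE 0.137, FDR 0.00252). In HCT116 the median for this KO was 0.00. Of 5 calmodulins and myosin light chains tested, which bind the IQ motifs, 0 were called in any KO by edgeR and 1 of 25 tests by DESeq2, with 10 at an unadjusted p under 0.05, and 4 passed by FDR alone in the A549 MSTRG.4401.1 KO, with CALM3 at -0.62 (SE 0.124, FDR 0.00746). All 4 were lower, as IQGAP1 was. In that comparison the median of each of the 9 role lists was below 0, from -0.53 to -0.01, and that over all genes was 0.12.

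Among 12 actin, formin and microtubule partners, 2 were called in the A549 MSTRG.4401.1 KO by edgeR and 4 by DESeq2, with 15.4% of all genes called by edgeR. ACTG1, cytoplasmic gamma actin (-1.12, SE 0.171, edgeR FDR 0.00268), and APC, which links microtubule ends to the cortex (-1.78, SE 0.562, FDR 0.0406), fell there. DIAPH1, a formin that nucleates actin, fell in the MSTRG.34636.7 KO, from 314 to 155 CPM (-1.03, SE 0.137, FDR 0.0201). Of 4 cadherin adhesion partners, CDH1, which codes for E-cadherin, was called in 2 KOs. It fell from 63.99 to 23.1 CPM in the A549 MSTRG.2513.6 KO (-1.47, SE 0.116, FDR 0.000807) and from 99.9 to 49.5 CPM in the HCT116 MSTRG.4401.1 KO (-1.03, SE 0.0602, FDR 0.000117). It was higher in the A549 MSTRG.4401.1 KO and passed by FDR alone, at 63.99 and 132 CPM in WT B and KO (0.97, SE 0.113, FDR 0.000851), so CDH1 went both ways where IQGAP2 was higher. Of 10 EGFR and MAP kinase partners, 8 phosphoinositide kinase partners and 9 RasGAP-domain genes tested, edgeR called 0 in any KO, with 18 of 50, 13 of 40 and 17 of 45 tests at an unadjusted p under 0.05, and DESeq2 called 1, 1 and 2. In the A549 MSTRG.4401.1 KO 8, 4 and 4 of them passed by FDR alone with edgeR, beside 43.7% of all genes. With S11 as the only HCT116 MSTRG.2513.6 KO library, edgeR called TIAM1 of the GTPase list, APC of the actin list and RASA4 of the RasGAP-domain list, and 0 of the calmodulin, cadherin, MAP kinase and phosphoinositide lists, beside 8.69% of all genes.

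Of 12 mitosis and cytokinesis genes, the setting in which IQGAP3 is best known, 0 were called in any KO with all 3 libraries. This held for edgeR and DESeq2. Of 60 edgeR tests, 22 had an unadjusted p under 0.05, against 24.3% for all genes. Without the HCT116 MSTRG.2513.6 KO, which holds S8 and S9, it was 22 of 48 tests, against 25.2%. In the HCT116 MSTRG.4401.1 KO all 12 were above 0 (median 0.20 against 0.00 for all genes) and 7 passed by FDR alone, beside 16.3% of all genes, IQGAP3 being at 0.27 there. AURKB, a kinase of chromosome segregation, was at 0.41 (SE 0.0443, edgeR FDR 0.00144). In the A549 MSTRG.4401.1 KO all 12 were below 0 (median -0.29) and 6 passed by FDR alone, near the 43.7% of all genes, whereas IQGAP3 was at 0.29. CCNB1, the mitotic cyclin, was at -0.69 there (SE 0.152, FDR 0.0107). In the A549 MSTRG.2513.6 KO their median was -0.31 and 2 passed by FDR alone, with IQGAP3 at -0.19. In the HCT116 MSTRG.2513.6 KO the median was 0.06 with all 3 libraries. With S11 alone it was -0.77, against 0.01 for all genes, and IQGAP3 was at -0.35.

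Of 9 liver genes, read because IQGAP2 is abundant in liver, 6 were tested in the A549 MSTRG.2513.6 KO and 3 fell, beside 2.92% of all genes called in either direction. HNF4A, a transcription factor of hepatocytes, fell by 1.08 (SE 0.0967, edgeR FDR 0.00141) on the log2 scale. The fibrinogen genes FGA and FGB fell by 1.82 (SE 0.268, FDR 0.0122) and 4.15 (SE 0.330, FDR 0.000816). In the A549 MSTRG.4401.1 KO, 0 of 5 tested were called by edgeR or DESeq2, with 2 at an unadjusted p under 0.05 beside 45.3% of all genes, and HNF4A was at 0.46 (SE 0.112, FDR 0.016). In the HCT116 MSTRG.4401.1 KO, ALB and AFP were called higher of 4 tested, but at mean levels of 0.906 and 0.722 CPM, with AFP at 0 counts in all WT B libraries. In each of the other HCT116 KOs, 0 of 3 tested were called by edgeR, with 1 at an unadjusted p under 0.05, beside 20.7% and 15% of all genes, and DESeq2 called 1 in the MSTRG.2513.6 KO and 0 in the MSTRG.34636.7 KO. With S11 alone the median log2(fold change) of the 4 tested was 0.27, against 0.01 for all genes.

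For each member the 5 genes most alike over the 24 libraries were taken by Pearson's r of log2(CPM + 1) among 22320 genes. These are descriptions, since the libraries share lines and controls. For IQGAP2 they were VAMP1 (r 0.952), WHAMMP3 (0.948), RHOBTB1 (0.948), ANKS1B (0.946) and CR381670.1 (0.940). VAMP1 encodes a vesicle SNARE. VAMP1, RHOBTB1, WHAMMP3 and ANKS1B stayed among the 5 without S8 and S9, with r from 0.942 to 0.948. Their log2(fold changes) in the A549 MSTRG.4401.1 KO were 0.71, 0.79, 0.58 and 0.98, against 2.38 for IQGAP2. For IQGAP1 they were CD59, a complement inhibitor (0.897), ANO10, YIPF5, EPHB2 and ILK, the integrin-linked kinase (0.869). For IQGAP3 they were AC027627.1 (0.940), Z95331.1, MRTFA-AS1, AC080112.1 and B4GALNT1 (0.926). Between members, r was 0.790 for IQGAP2 and IQGAP3 (0.825 without S8 and S9), 0.286 for IQGAP1 and IQGAP2 and 0.010 for IQGAP1 and IQGAP3.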

How the data were processed

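Total RNA of 24 libraries was sequenced by the authors after ribosomal RNA depletion with a directional kit. Per the labels, Trim Galore 0.6.6, FastQC 0.11.9 and HISAT2 2.2.1 with hg38 were used. The deposited values are whole-number counts per gene symbol, neither normalized nor pooled. The annotation release, the strand setting and the step from StringTie to whole counts are not given in the sources used here, so reads of overlapping or antisense genes may be shared. Libraries numbered 1A to 3A list 3 further symbols, which were left out of the 60641 used.

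Groups came from the sample labels. CPM is relative to the library total, and CPM per kb uses the union of GENCODE exons, the files' genome build being the same. At 25799359 to 102261808 counts per library the members rest on 62 to 34258 counts each. Each comparison was fitted on its 6 libraries over all genes with edgeR 4.0.16 (limma 3.58.1, R 4.3.3): TMM normalization, the filterByExpr filter and the quasi-likelihood test, with FDR by Benjamini-Hochberg. Thresholds were an FDR of 0.1 and an absolute log2(fold change) of 1, as in the study's methods. Interactions used 12 libraries and FDR alone. The fits were tested on simulated counts.

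Named genes were the members, genes overlapping or next to them, the 5 genes most alike each member and called genes of 9 role lists. Further genes were named after their values were seen: CDC42, RHOA, CALM3, AURKB, CCNB1, CDX1, CDX2, GPA33, CDH17, VIL1 and LGALS4. One gene of the liver list is not reported here. The members and lists were chosen with earlier results of these data known. Alternatives were DESeq2 1.42.0, upper-quartile normalization, no filter, at least 10 counts in every library, one fit per cell line, the other HCT116 wild type, S11 alone, the replicate number as a block, and each library left out in turn. For interactions, leaving out libraries, and for role lists and neighbours S11 alone, were added after the data were seen. The lowest chi-square per degree of freedom between replicates of a group was 17.5 over 24 pairs, so no library was counted as a repeat of another.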

Additional observations from a re-analysis of the deposited data

Results flagged for a closer look

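The effect of the MSTRG.4401.1 DBD KO on IQGAP1 differed between the lines by a test of the difference itself, being 0.64 log2 units higher in HCT116 than in A549 (SE 0.154, edgeR FDR 0.0121), and it stayed at an FDR of 0.0356 or less when any of the 12 libraries was left out, with values from 0.54 to 0.80. IQGAP1 was lower in 3 of 3 A549 KO libraries than in any WT B library, and its ranges overlapped in HCT116. The A549 KO libraries had a mitochondrial share of 6.10% against 2.11% in WT B, and the part of this was not tested.

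The effect of the MSTRG.2513.6 DBD KO on IQGAP1 also differed, by 0.96 (SE 0.299, edgeR FDR 0.0946), higher in HCT116. This passed in 1 of 12 fits with a library left out, the one without S11, at 1.17 (FDR 0.000514). With S11 as the only HCT116 KO library it was 0.38 (FDR 0.401). S8 and S9 carried the A549 marker levels given above, and IQGAP1 in them (450 and 487 CPM) was as high as in A549 WT B (406 to 452 CPM).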

How the results depend on the processing

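In the A549 KOs, IQGAP2 kept its side of 0 and a log2(fold change) from 1.05 to 2.54 under every alternative run. Since IQGAP2 was chosen on these differences, this only describes refits of the same libraries and is no support for them. The HCT116 MSTRG.2513.6 values depended on S8, S9 and the control: IQGAP2 (4.08) was 2.91 against WT A and 2.47 with S11 alone, and IQGAP3 (0.32) reversed to -0.35 with S11 alone. Leaving out 1 library gave 0.67 to 1.04 for IQGAP1, called only without S11. The 246 genes called became 2764 with DESeq2, 6 without the filter, 995 with at least 10 counts, 3487 in one fit per line, 900 against WT A and 2625 with S11 alone, and 0 to 10636 with 1 library left out. The 0 arose by edgeR without S8, S9 or any WT B library, where 3024 to 3555 genes had an unadjusted p under 0.05, and 10636 without S11.

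In the HCT116 MSTRG.4401.1 KO, 697 calls became 27 in one fit per line and 2743 against WT A, where IQGAP2 (1.97) was 0.83. In the MSTRG.34636.7 KO, 385 calls became 887 with DESeq2, 90 in one fit, 4059 against WT B and 80 to 746 with 1 library left out (80, 82 and 92 without KO libraries 1A, 2A and 3A, 746 without WT A library 2A). IQGAP2 (-0.02) reversed to 1.10 against WT B, and ranged from -0.36 to 0.71 with 1 library left out.

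With the replicate number as a replicate block, the MSTRG.34636.7 calls became 145 and IQGAP2 0.19. Samples of one number shared little (r 0.006, 0.020 and 0.060 with WT A, -0.173, -0.012 and -0.020 between the wild types). Samples of different numbers had r from -0.042 to 0.017 with WT A and from -0.091 to 0.111 between the wild types. The labels do not say whether the numbers pair the libraries, and so few small values cannot decide it. The block changed no other call on IQGAP1 or IQGAP3.

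Between WT A and WT B, IQGAP3 (-0.06) was 0.031 under upper-quartile normalization and -0.21 to 0.012 with 1 library left out, and IQGAP2 0.39 to 1.46, the lowest without WT A library 2A. Between the lines, 9962 calls became 5418 with at least 10 counts, and IQGAP2 (3.25) was 2.06 against WT A. In the A549 MSTRG.2513.6 KO, 750 calls ranged with 1 library left out from 451 (without WT B library S21) to 791, with 497 without S20, and were 1003 with DESeq2. For the interactions, the MSTRG.2513.6 IQGAP1 value (0.96) was 0.38 with S11 alone and 0.80 to 1.17 with 1 library left out, and IQGAP3 (0.47) was -0.16 with S11 alone and 0.33 to 0.70, passing only without S11. The MSTRG.4401.1 IQGAP3 value (0.02) was -0.12 under upper-quartile normalization. Called genes in the A549 MSTRG.4401.1 KO were higher in 71.9%, or 83.1% under upper-quartile normalization. IQGAP3 there passed in 3 of 6 fits with 1 library left out, and in the HCT116 MSTRG.4401.1 KO it did not pass in one fit per line or against WT A.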
